A study of Drosophila melanogaster with 8 samples.

Results

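The ring gland genes that make ecdysone and juvenile hormone were read in RNA of Drosophila larval brains. The 9 genes are nvd, spok, sro, phtm, dib, sad, ouib, Start1 and jhamt, taken by name as known genes of the synthesis of the 2 hormones, and not by any value in these libraries. They stand for 9 of the 17225 genes, and for 14 of the 34463 RefSeq transcripts, that the count files hold. STIM KO larvae carry a null mutation of Stim, which codes for the ER calcium sensor of store-operated calcium entry, and CS (Canton S) is the wild-type strain. Brains of STIM KO larvae were taken at 72 to 76 h after egg laying (AEL) and brains of CS larvae at 58 to 62 h AEL, times at which the study describes both as second instars, so genotype and age differ together and cannot be told apart. There were 4 libraries per genotype, each from a pool of brains. The labels name the tissue as brain and do not say how much of the ring gland was left on it.

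Ecdysone is made from dietary cholesterol in the prothoracic gland, the largest part of the larval ring gland, which sits on the brain. Cholesterol is delivered and first dehydrogenated, then passes through the poorly known steps called the Black Box, and the last hydroxylations are carried out by cytochrome P450 enzymes of the Halloween group. Pulses of the hormone time each larval moult, and the synthesis genes rise and fall with them. Juvenile hormone, which holds the larva in its juvenile programme, comes from the corpora allata, and the corpora cardiaca of the same gland release adipokinetic hormone. In a bulk sample fewer gland cells and less RNA per gland cell cannot be told apart, nor can either be told from the amount of gland left on the brain.

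The libraries held 395680 to 2090717 reads assigned to a transcript. Both genotypes split into the same 2 library sets. Replicates 1 and 2 held at most 1129439 assigned reads, with 9.89% to 18.0% of reads ambiguous, and replicates 3 and 4 held at least 1626626, with 33.5% to 34.5% ambiguous. Neither the labels nor the study name a batch, and values are given within these sets beside the pooled ones. Of the deleted gene, the Stim transcript NM_001298380.1 had 0 counts in all 4 STIM KO libraries and 2, 3, 6 and 9 counts in CS replicates 1 to 4. Another Stim transcript, NM_206747.3, was counted 14, 19, 3 and 2 times in STIM KO and 4, 1, 6 and 5 in CS, so the sum over Stim does not separate the genotypes (exact permutation test, p = 0.686). Levels are given as CPM, the counts of a gene relative to the TMM-normalized size of its library. A count of 0 allows up to 3 counts, which is 1.28 to 9.51 CPM depending on the library. This floor covers counting error only.

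All 9 genes had at least 1 count in both genotypes, but at very different depth. Start1 had only 1 count in STIM KO, under the floor of 3 counts. The sums over the 8 libraries were 32299 counts for spok, 4925 for sad, 1931 for nvd, 1258 for dib, 588 for sro and 211 for ouib. The same sums were 57 for phtm, 17 for Start1 and 13 for jhamt. The first 6 passed the expression filter of the fit across all transcripts and the last 3 did not. Each of those 6 has a single annotated transcript. Reads were assigned to transcripts, and whether a read in bases that several transcripts share was set aside as ambiguous is not given in the sources used here. Only 206 of the 2203 exonic bases of phtm (9.35%) lie in a single transcript, 63 of 1073 in jhamt (5.87%) and 58 of 2395 in Start1 (2.42%). The counts of these genes come from 1 transcript each (NM_001298485.1 of phtm, NM_001299051.1 of jhamt, NM_001299919.1 of Start1), their other transcripts are at 0 in every library, and their levels cannot be set beside those of the other 6.

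**Figure D1:**
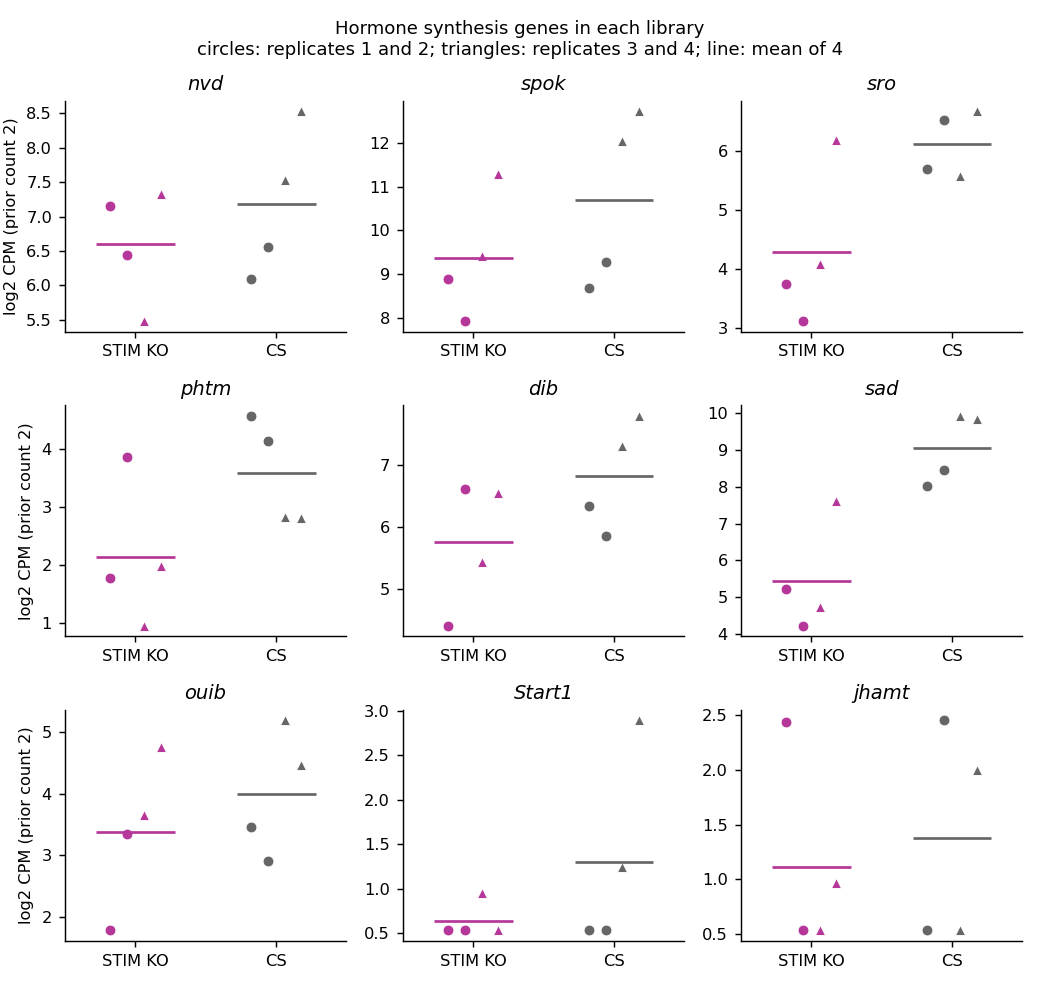
Log2 CPM (prior count of 2) of the 9 synthesis genes in each STIM KO and CS library, with the mean of 4 libraries as a line and a scale of its own for each gene. Circles are replicates 1 and 2 and triangles are replicates 3 and 4. The 4 STIM KO libraries lie below all CS libraries for sad alone, and the 2 genotypes overlap in the other 8 panels.

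In the comparison of STIM KO with CS, all 6 genes that passed the expression filter had a lower fitted level in STIM KO, and sad was the furthest apart. The mean level of sad was 67.9 ± 84.0 CPM in STIM KO and 619 ± 366 CPM in CS (SD, n = 4 each). In the edgeR quasi-likelihood fit of 5829 transcripts (Benjamini-Hochberg adjusted), 0 of the 6 genes passed an adjusted p of 0.05, and so did 0 of all transcripts (0%), while 355 of the 5829 were under an unadjusted p of 0.05. DESeq2, which was fitted to 16016 transcripts and gave an adjusted p for 6944, called 85. At an unadjusted p under 0.05 by the same edgeR test 1 of the 6 was lower, sad, against 2.74% of all transcripts. A lower fitted level was given for 47.2% of all transcripts, and the median log2 fold change of the 6 genes was -1.23, against 0.05 over all transcripts tested. The fitted value of each of the 6 stayed below 0 in all 21 fits that held libraries of both sets. These included other scalings and filters and each library left out. In a fit of replicates 1 and 2 alone, nvd had a log2 fold change of 0.54. Without the expression filter all 9 genes had a lower fitted level, against 53.7% of 16016 transcripts, and 0 of the 9 passed an adjusted p of 0.05 in the lower direction, against 0.0624%.

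The first steps supply cholesterol and dehydrogenate it. Start1, which codes for a START domain protein thought to carry cholesterol, lies on chromosome 2R from 24574559 to 24577676 in dm6. Start1 had 0, 0, 1 and 0 counts in STIM KO replicates 1 to 4 and 0, 0, 2 and 14 in CS replicates 1 to 4, so nearly all of its reads are of CS replicate 4 and no fold is given. Of the exonic bases of Start1, 111 also lie under SIFa, a neuropeptide gene on the opposite strand.

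The gene nvd (neverland, NM_001104200.3) codes for the Rieske oxygenase that dehydrogenates cholesterol, and its 6 exons lie on chromosome 3L from 24324866 to 24401655. Its level was 141, 85.2, 43.2 and 159 CPM in STIM KO replicates 1 to 4 and 66.6, 92.7, 184 and 368 CPM in CS replicates 1 to 4. The genotypes overlapped (log2 fold change -0.74, SE 0.64, edgeR adjusted p = 0.996). Within replicates 1 and 2 mean log2 CPM differed by 0.47, with STIM KO higher, and within replicates 3 and 4 by -1.63, with no overlap. The edgeR term for this change between the sets (genotype by set) was -1.95 (unadjusted p = 0.0493, adjusted p = 0.323). Of the 6 genes, nvd was the 1 under 0.05 before adjustment, against 15.4% of all transcripts. Without CS replicate 4 the log2 fold change of nvd was -0.11.

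The Black Box is represented by spok and sro. The P450 gene spok (spookier, NM_001110990.3), on chromosome 3R from 3322810 to 3354486, had by far the most reads of the 9. Its level was 470, 241, 683 and 2479 CPM in STIM KO replicates 1 to 4 and 412, 623, 4234 and 6736 CPM in CS replicates 1 to 4. The genotypes overlapped over all libraries, but in replicates 3 and 4 both STIM KO libraries were below both CS libraries. Its fitted log2 fold change was -1.63 (SE 1.08, edgeR adjusted p = 0.934). Mean log2 CPM differed by -0.59 within replicates 1 and 2, by -2.04 within replicates 3 and 4 and by -1.31 overall (exact permutation test, p = 0.286). Without CS replicate 4 the fitted change was -0.87 and without STIM KO replicate 4 it was -2.70.

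The gene sro (shroud, NM_143468.2), a short-chain dehydrogenase gene on chromosome 3R from 29794597 to 29795805, had fewer reads. Its level was 11.9, 7.22, 15.5 and 71.3 CPM in STIM KO replicates 1 to 4 and 50.7, 90.7, 46.6 and 101 CPM in CS replicates 1 to 4. In 3 of 4 STIM KO libraries it lay below every CS library, and STIM KO replicate 4 lay within the CS range. Its fitted log2 fold change was -1.43 (SE 0.75, edgeR adjusted p = 0.853), and mean log2 CPM differed by -1.84 (exact permutation test, p = 0.0857). Within replicates 1 and 2 this was -2.69, with no overlap, and within replicates 3 and 4 it was -0.995. Without STIM KO replicate 4 the fitted change of sro was -2.61 and its adjusted p was 0.506 by edgeR. Of its 1154 exonic bases, 109 (9.4%) also lie under Rnb on the opposite strand, and the counting mode for strand is not given in the sources used here.

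The last 3 hydroxylations are made in turn by the P450 enzymes of phtm, dib and sad. The gene phtm (phantom), on chromosome X from 18685766 to 18688433, codes for an ER enzyme that adds a hydroxyl group to the side chain. It had 2, 9, 1 and 5 counts in STIM KO replicates 1 to 4 and 7, 8, 12 and 13 in CS replicates 1 to 4. On the CPM scale it was at 1.99, 13.0, 0.48 and 2.51 in STIM KO and 22.2, 16.1, 5.59 and 5.55 in CS. Within each library set every STIM KO library was below every CS library, and over all 8 the 2 genotypes overlapped through STIM KO replicate 2. Mean log2 CPM differed by -1.44 (exact permutation test, p = 0.143). Without STIM KO replicate 2 it differed by -2.01 (exact permutation test, p = 0.0286, the smallest possible for 4 libraries against 3). Leaving out the overlapping library fixed that p in advance. Leaving out any other library gave an exact permutation p of 0.114 to 0.286. Fitted without the expression filter, its log2 fold change was -1.48 (SE 1.06, edgeR adjusted p = 0.683).

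The gene dib (disembodied, NM_080071.3), on chromosome 3L from 4062292 to 4064551, codes for a mitochondrial P450 that makes the next side chain hydroxylation. Its level was 19.9, 96.7, 42.2 and 92.4 CPM in STIM KO replicates 1 to 4 and 79.2, 56.4, 156 and 219 CPM in CS replicates 1 to 4. The genotypes overlapped in replicates 1 and 2 and were apart in replicates 3 and 4. Its fitted log2 fold change was -1.03 (SE 0.64, edgeR adjusted p = 0.908). Mean log2 CPM differed by -0.58 within replicates 1 and 2 and by -1.54 within replicates 3 and 4. Of the 1975 exonic bases of dib, 400 (20.2%) lie under wit, a BMP receptor gene on the opposite strand.

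The gene sad (shadow, NM_141866.2) codes for the mitochondrial P450 that completes ecdysone by hydroxylating the steroid ring, and its 6 exons lie on chromosome 3R from 11877235 to 11879754. Its level was 35.8, 17.3, 25.2 and 193 CPM in STIM KO replicates 1 to 4 and 257, 351, 963 and 904 CPM in CS replicates 1 to 4. Every STIM KO library lay below every CS library, and the nearest pair was STIM KO replicate 4 and CS replicate 1. In counts these were 36, 12, 52 and 385 in STIM KO against 81, 174, 2067 and 2118 in CS. Its fitted log2 fold change was -3.18 (SE 0.90, 95% interval -5.20 to -1.16, edgeR unadjusted p = 0.00582, adjusted p = 0.569). Mean log2 CPM differed by -3.60, with an exact permutation p of 0.0286, the smallest that 4 libraries against 4 allow. Within replicates 1 and 2 this was -3.51 and within replicates 3 and 4 it was -3.70 (edgeR term for the change between the sets 0.40, adjusted p = 0.887). The separation of the genotypes held under TMM, upper-quartile and DESeq2 scaling. It did not hold with library size only, where the highest STIM KO library was at 237 CPM and the lowest CS library at 205 CPM (exact permutation test, p = 0.0571). Leaving out any 1 of the 4 CS libraries also gave an exact permutation p of 0.0571, and replicates 2 to 4 gave 0.1, the smallest that 3 against 3 allow. Without STIM KO replicate 4 the fitted change was -4.57, and leaving out each library in turn gave -4.57 to -2.88. Only 53 exonic bases of sad (2.99%) lie under another gene, CG6962 on the opposite strand.

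Over all libraries 1 of the 6 genes, sad, was lower in STIM KO with no overlap between the genotypes, against 2.9% of all transcripts. Within both library sets the same was true of sad alone among the 6, against 9.06% of all transcripts. Within replicates 3 and 4 it held for 4 of the 6 (nvd, spok, dib and sad), against 26.9% of all transcripts. Within replicates 1 and 2 it held for 2 of the 6 (sro and sad), against 21.9%. With 2 libraries a side, such separation was frequent among all transcripts.

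The library set was then put into the fit. At an adjusted p of 0.05 by edgeR, 3 of the 6 genes were higher in replicates 3 and 4 than in replicates 1 and 2, against 27.6% of all transcripts, with log2 changes of 2.78 for spok, 1.86 for ouib and 1.81 for sad. With the set as a term, sad fell by 3.28 on the log2 scale in STIM KO (SE 0.57, edgeR adjusted p = 0.0339), as 1 of the 6 genes called lower against 0.343% of all transcripts. At an unadjusted p under 0.05 in this edgeR fit 3 of the 6 were lower (sad, sro and spok), against 7.87% of all transcripts. The values were -1.68 for sro (SE 0.64, edgeR adjusted p = 0.223) and -1.17 for spok (SE 0.52, adjusted p = 0.284 by edgeR). The other 3 had -0.89 for dib, -0.52 for nvd and -0.59 for ouib, with adjusted p of 0.415 to 0.662 by edgeR. DESeq2 over the 8 libraries called 1 of the genes, sad (adjusted p = 0.0402), against 0.59% of transcripts called lower. With the replicate number as a block, edgeR called 0 of the 6 genes (sad, -3.62, adjusted p = 0.0604), against 0.0686% of all transcripts called lower. With the set as a term and no expression filter, a fit added after the data were seen, 2 of the 9 genes were called lower, sad and sro (adjusted p of 8.9e-11 and 0.0476 by edgeR), against 1.4% of transcripts. In that fit the variance was in effect pooled over all transcripts. Its p-values do not measure each gene's own spread between samples.

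**Figure D2:**
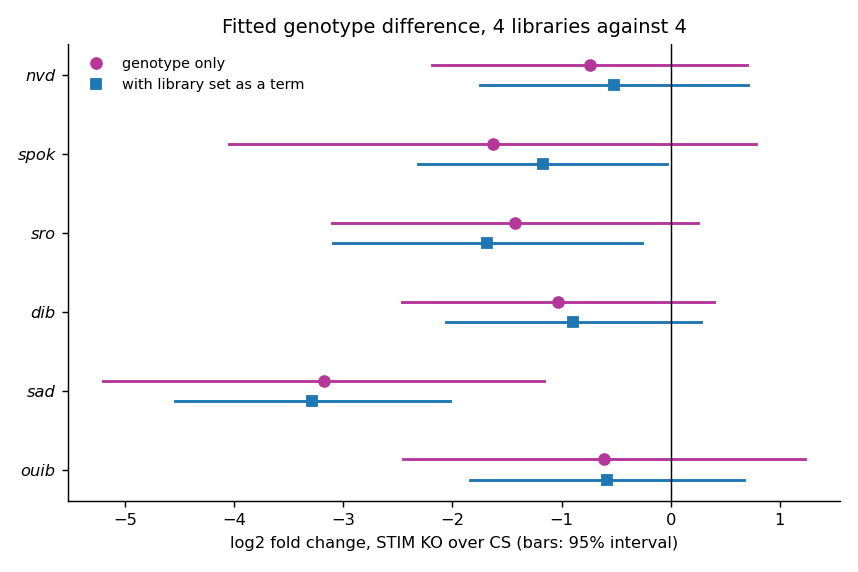
Fitted log2 fold change of STIM KO over CS, with 95% intervals, for the 6 synthesis genes that passed the expression filter, from the edgeR fit of genotype only (circles) and the fit that also holds the library set (squares). All 12 estimates lie below 0. The interval of sad excludes 0 in both fits (-5.20 to -1.16 with genotype only), those of spok and sro exclude it with the set term only, and those of nvd, dib and ouib include it in both.

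The regulator ouib (ouija board, NM_141565.4), a zinc finger transcription factor gene on chromosome 3R from 8725479 to 8726730, is known to be needed in the prothoracic gland for the transcription of spok. It had 2, 6, 23 and 51 counts in STIM KO replicates 1 to 4 and 3, 3, 75 and 48 in CS replicates 1 to 4. On the CPM scale it was at 1.99, 8.66, 11.2 and 25.6 in STIM KO and 9.51, 6.05, 34.9 and 20.5 in CS. The genotypes overlapped in both library sets (log2 fold change -0.61, SE 0.82, 95% interval -2.45 to 1.23, edgeR adjusted p = 0.999). Its differences in mean log2 CPM within the sets were -0.62 and -0.61.

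The juvenile hormone branch is represented by jhamt, the gene of juvenile hormone acid methyltransferase of the corpora allata, on chromosome 2L from 16365903 to 16367039. It had 4, 0, 0 and 1 counts in STIM KO replicates 1 to 4 and 0, 2, 0 and 6 in CS replicates 1 to 4. All but 2 libraries were at or under the floor of 3 counts, so a difference was not detectable at this depth (difference in mean log2 CPM -0.26, exact permutation test, p = 0.83).

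The 9 genes were next read together. Their summed level was 687, 469, 821 and 3023 CPM in STIM KO replicates 1 to 4 and 897, 1240, 5625 and 8363 CPM in CS replicates 1 to 4. STIM KO replicate 4 lay above CS replicates 1 and 2, and within each library set the CS libraries were higher. Between 45.9% and 83.2% of these counts were of spok. The share of sad was 5.21%, 3.69%, 3.07% and 6.40% in STIM KO replicates 1 to 4 and 28.6%, 28.3%, 17.1% and 10.8% in CS replicates 1 to 4, with no overlap.

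Each of the 6 was then set against the mean log2 CPM of the other 5 in its own library, a measure that stays nearly the same when all 6 genes change by 1 factor. It was chosen after the values were seen and is given without a test. Relative to the other 5 genes, sad stood at -0.43 in STIM KO (SD 0.77, from -1.26 to 0.39) and at 2.09 in CS (SD 0.27, from 1.79 to 2.38), a difference of -2.52 with no overlap. The same difference was 1.11 for nvd, 1.06 for ouib, 0.53 for dib, 0.23 for spok and -0.41 for sro, and in these 5 the genotypes overlapped. As a ratio of counts, sad to nvd was 0.25, 0.20, 0.58 and 1.22 in STIM KO replicates 1 to 4 and 3.86, 3.78, 5.23 and 2.45 in CS replicates 1 to 4. The ratio of sad to dib, both mitochondrial P450 genes, was 1.80, 0.18, 0.60 and 2.09 in STIM KO and 3.24, 6.21, 6.19 and 4.13 in CS. The ratio of sad to spok was 0.076, 0.072, 0.037 and 0.078 in STIM KO and 0.623, 0.563, 0.227 and 0.134 in CS. The ratio of sad to sro was 3, 2.40, 1.63 and 2.71 in STIM KO and 5.06, 3.87, 20.7 and 8.97 in CS. In all 4 ratios, which do not depend on how the libraries are scaled, every STIM KO library lay below every CS library.

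**Figure D3:**
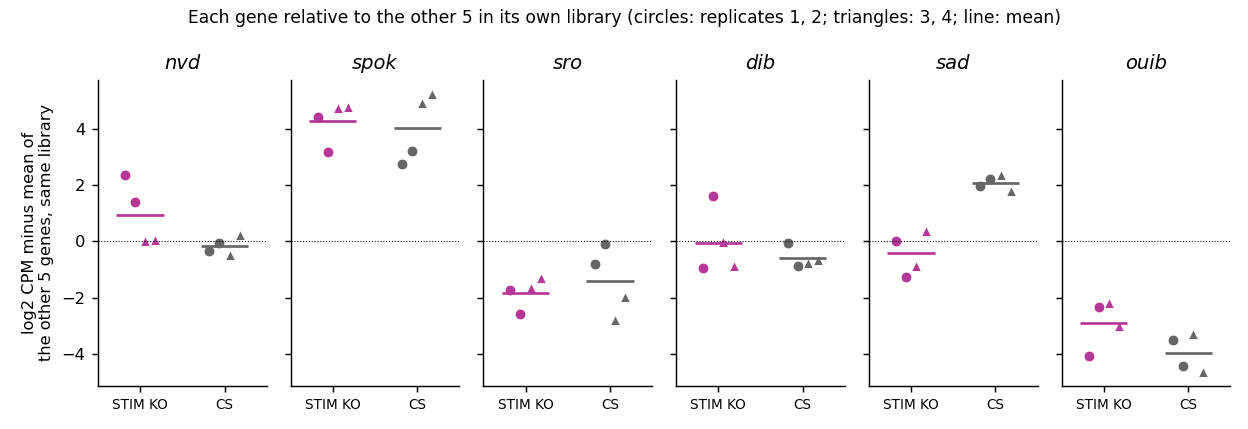
Log2 CPM of each of the 6 synthesis genes minus the mean of the other 5 in the same library, for STIM KO and CS, with the mean of 4 libraries as a line. Circles are replicates 1 and 2 and triangles are replicates 3 and 4. For sad the STIM KO libraries lie between -1.26 and 0.39 and the CS libraries between 1.79 and 2.38, and the genotypes overlap for the other 5 genes.

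Levels were compared between genes as CPM per kb of exon, for the 6 genes with a single transcript. In STIM KO the order of the mean levels was spok (548 CPM per kb), nvd (62.2), sad (38.3), dib (31.8), sro (23.0) and ouib (10.4). In CS the order was spok (1699 CPM per kb), sad (349), nvd (103), dib (64.6), sro (62.5) and ouib (15.6). The change in the order was thus in the place of sad, which was second in CS. In STIM KO spok was above nvd in 4 of 4 libraries, nvd above sad in 3 of 4, sad above dib in 2 of 4, dib above sro in 2 of 4 and sro above ouib in 3 of 4. The mean log2 ratio of nvd to sad was 1.23 (SD 1.18), just above its spread, and those of sad to dib, dib to sro and sro to ouib were within theirs (-0.17, SD 1.65; 0.80, SD 1.51; 1.05, SD 1.24). In CS spok was above sad, sad above nvd and sro above ouib in 4 of 4 libraries each. In CS nvd was above dib in 3 of 4 libraries (mean log2 ratio 0.56, SD 0.47) and dib above sro in 2 of 4 (-0.07, SD 1.03), so that dib and sro do not differ beyond their spread.

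Across the 8 libraries the log2 CPM of the 15 pairs of these 6 genes correlated with Pearson r of 0.39 to 0.89 (median 0.66). After the mean of each library set was taken off, r was 0.17 to 0.90 (median 0.54). The points share library depth, genotype and age, and the values describe these libraries only. The transcripts outside the 9 genes whose pattern was most like their summed level over the 8 libraries, set means removed, were asRNA:CR43812 (r = 0.99), Ctf4 (0.98), CG11562 (0.97), Cdk1 (0.97) and asRNA:CR46097 (0.97). Cdk1, the mitotic kinase, was at 69.6, 57.7, 32.0 and 65.3 CPM in STIM KO replicates 1 to 4 and 98.3, 129, 175 and 190 CPM in CS replicates 1 to 4, with no overlap under TMM, upper-quartile and DESeq2 scaling and with overlap under library size only. Ctf4, which codes for a replication fork protein, was at 33.8, 18.8, 24.7 and 62.8 CPM in STIM KO and 34.9, 50.4, 100 and 110 CPM in CS.

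The other genes of the pathway were read as lists, and in edgeR over all transcripts 0 of the 38 tested passed an adjusted p of 0.05 with genotype only or with the set as a term. Of all 5829 transcripts, 0 passed with genotype only and 39 with the set as a term, so the 0 of 38 is near the share of all transcripts. Of 12 further ecdysone synthesis and prothoracic gland genes, 5 were tested, 3 with a lower and 2 with a higher fitted level (median log2 fold change -1.10). Fdx2, a mitochondrial ferredoxin gene, was at 31.8, 53.4, 58.7 and 68.3 CPM in STIM KO replicates 1 to 4 and 209, 210, 74.5 and 80.6 CPM in CS replicates 1 to 4. Its libraries did not overlap (log2 fold change -1.42, SE 0.52, adjusted p = 0.729 by edgeR). The values were -1.90 for vvl (adjusted p = 0.872 by edgeR), the POU factor gene needed for ecdysone synthesis gene expression, and -1.10 for Cyp6t3 (adjusted p = 0.917 by edgeR). The level of vvl was 14.9, 36.1, 9.21 and 6.03 CPM in STIM KO replicates 1 to 4 and 133, 103, 9.32 and 4.27 CPM in CS replicates 1 to 4. STIM KO was thus lower in replicates 1 and 2, and the genotypes overlapped in replicates 3 and 4. With the set as a term the value of vvl was -1.09. Not every gene of the group had a negative value, with 0.07 for GstE14 (noppera-bo, a glutathione S-transferase of the pathway) and 0.20 for dare, the ferredoxin reductase gene. Reads were at 0 in all 8 libraries for spo, the paralogue of spok, and for Fdx1 and mld. As for phtm, reads in bases that transcripts share may be uncounted. A level near 0 of a list gene therefore does not show that it was not expressed.

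Of 10 genes of cholesterol supply, 3 were tested, and their median was 0.14. Npc2a, whose product binds sterols in the lysosome, was at 142, 70.7, 39.3 and 73.3 CPM in STIM KO replicates 1 to 4 and 298, 411, 180 and 214 CPM in CS replicates 1 to 4. Its libraries did not overlap under any of the 4 scalings (log2 fold change -1.76, SE 0.52, edgeR adjusted p = 0.591, and 0.051 with the set as a term). Lip4, a lipase gene, had 1.70 (adjusted p = 0.897 by edgeR), and Hr96, the nuclear receptor gene of cholesterol balance, had 0.14.

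Among 16 genes of the signals that reach the prothoracic gland, 10 were tested (7 fitted higher, 3 lower, median 0.47). Ptth, the neuropeptide that starts ecdysone synthesis, had at most 2.13 CPM in any library, and its receptor gene tor was at 0. Both values have the limit of uncounted shared bases. Actbeta, the activin ligand, was at 762, 647, 632 and 467 CPM in STIM KO replicates 1 to 4 and 184, 177, 405 and 355 CPM in CS replicates 1 to 4. Its libraries did not overlap (log2 fold change 1.16, SE 0.48, adjusted p = 0.756 by edgeR). Smox, the activin Smad, was at 1694, 251, 163 and 114 CPM in STIM KO replicates 1 to 4 and 292, 96.8, 108 and 75.9 CPM in CS replicates 1 to 4. Its log2 fold change of 1.97 (adjusted p = 0.853 by edgeR) rests on STIM KO replicate 1, and was 0.27 without that library. InR, the insulin receptor gene, had 1.13 (adjusted p = 0.872 by edgeR), and 0.62 without the same library. The values of Smox and InR are of 1 transcript each, with the same limit of uncounted shared bases.

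Of 20 genes of ecdysone uptake, inactivation and response, 9 were tested, with 5 fitted higher and 4 lower (median 0.16). The early response gene br had 338, 357, 114.9 and 49.7 CPM in STIM KO replicates 1 to 4 and 101, 129, 37.7 and 20.1 CPM in CS replicates 1 to 4. Within each library set br was higher in STIM KO, and its log2 fold change was 1.59 (SE 0.79, adjusted p = 0.853 by edgeR). The values were 1.02 for the ecdysone importer gene Oatp74D (adjusted p = 0.872 by edgeR) and -1.002 for the nuclear receptor gene Hr4 (adjusted p = 0.897 by edgeR).

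On the juvenile hormone side, 10 of 18 genes of the mevalonate pathway, juvenile hormone breakdown and its response were tested, with 6 fitted higher and 4 lower (median 0.26). Hmgs, the HMG-CoA synthase gene, was at 62.7, 23.1, 27.6 and 27.1 CPM in STIM KO replicates 1 to 4 and 0, 4.03, 14.9 and 16.2 CPM in CS replicates 1 to 4. Its libraries did not overlap, except under library size only (log2 fold change 1.85, SE 0.83, adjusted p = 0.806 by edgeR). The juvenile hormone response gene Kr-h1 had 0.49 and the phosphomevalonate kinase gene Pmvk had 0.56 (adjusted p of 0.999 and 0.980 by edgeR).

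The corpora cardiaca were listed with 2 genes, and 1 of them was tested. Akh, the adipokinetic hormone gene of the corpora cardiaca, was at 857, 424, 79.0 and 259 CPM in STIM KO replicates 1 to 4 and 139, 62.5, 192 and 65.3 CPM in CS replicates 1 to 4. STIM KO replicate 3 lay within the CS range and the other 3 STIM KO libraries lay above it. The log2 fold change of Akh was 1.81 (SE 0.74, adjusted p = 0.746 by edgeR), and 1.503 with the set as a term (adjusted p = 0.275 by edgeR). Without STIM KO replicate 1 it was 1.10. The other gene, Lst, a peptide hormone gene, did not pass the expression filter and had 2.98, 0, 2.91 and 5.02 CPM in STIM KO replicates 1 to 4 and 0, 10.1, 1.40 and 5.55 CPM in CS replicates 1 to 4, with overlap.

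**Figure D4:**
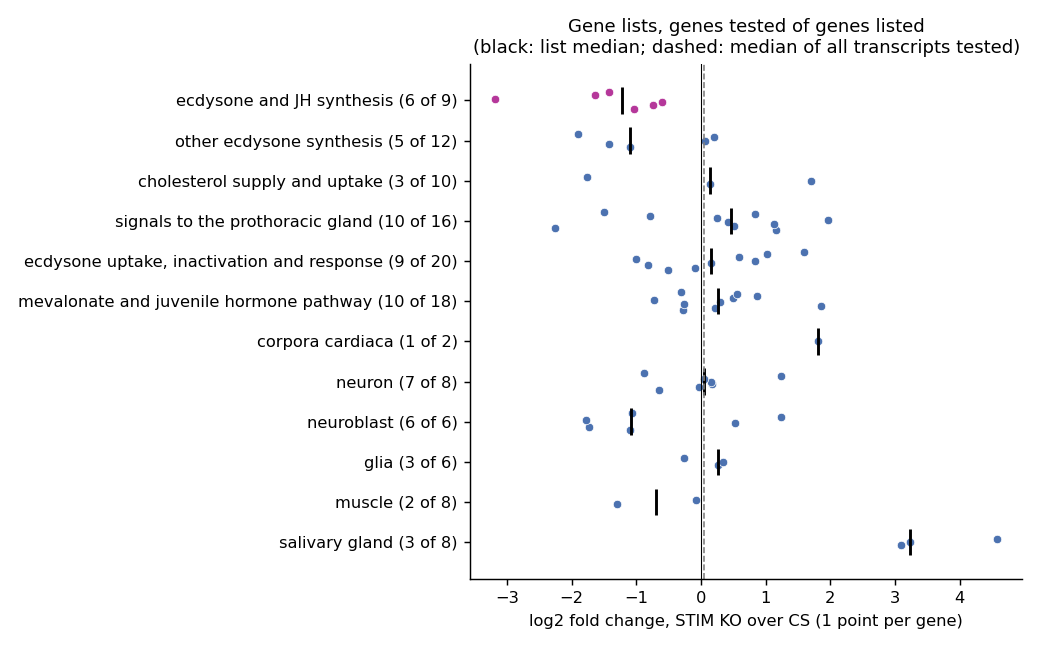
Log2 fold change of STIM KO over CS, 1 point per gene tested, for the 6 synthesis genes (top), the lists of hormone pathway genes and the lists of cell type markers, with each list's median as a black bar. The dashed line is the median of all transcripts tested, 0.05. The synthesis genes lie between -3.18 and -0.61, while Akh, the point of the corpora cardiaca, lies at 1.81 and the 3 salivary gland genes lie at 3.09 and above.

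Markers of the brain's cells and of other tissues that could come with the brain differed between libraries too, and their part in the values above was not tested. The 8 salivary gland markers summed to 86.3 to 1316 CPM in STIM KO and 19.0 to 127 CPM in CS. In STIM KO nearly all of this was of ng1, ng2 and ng3. Sgs3 and Sgs5 were at 0 in every library. Sgs4, Sgs7 and Sgs8 reached at most 1.44 CPM in STIM KO. In CS replicate 2, Sgs4 was at 10.1 CPM and Sgs8 at 6.05 CPM. The 3 tested genes (ng1, ng2 and ng3) had log2 fold changes of 3.09, 3.23 and 4.58, none past an adjusted p of 0.05 by edgeR. The 8 muscle markers summed to 545 to 2790 CPM in STIM KO and 742 to 5790 CPM in CS. Nearly all of this was of Act57B and Mlc2, and Mhc reached at most 10.1 CPM. The 6 neuroblast markers summed to 352 to 1377 CPM in STIM KO and 1131 to 1325 CPM in CS, and 882 CPM of the highest STIM KO sum were of insc alone. Their median log2 fold change was -1.09, beside -1.23 for the 6 synthesis genes tested, with 4 of 6 fitted lower, and -1.19, beside -1.03, with the set as a term. Of these, ase was at 110, 212, 108 and 249 CPM in STIM KO replicates 1 to 4 and 355, 298, 430 and 377 CPM in CS replicates 1 to 4 (log2 fold change -1.10, edgeR unadjusted p = 0.0345, adjusted p = 0.746). The 8 neuron markers summed to 941 to 6244 CPM in STIM KO and 537 to 8557 CPM in CS, and the 6 glia markers to 775 to 2564 CPM in STIM KO and 1032 to 1595 CPM in CS, so the brain's own cell types were present in every library. The fat body markers summed to at most 20.2 CPM, with Fbp1, Fbp2 and Yp1 at 0, and the blood cell markers to at most 6.34 CPM, with Hml, srp and Pxn at 0. Low values of markers do not show absence of a tissue, as the neuron marker Snap25 reached at most 2.80 CPM. The 8 gut markers summed to 1.94 to 183 CPM in STIM KO and 0 to 26.2 CPM in CS, with Jon99Cii and betaTry at 0. The highest of these sums was in STIM KO replicate 4 (Jon65Aiii at 108 CPM and Jon25Bi at 58.3 CPM), which was also the STIM KO library with the highest sad and sro. The 8 epidermis and cuticle markers summed to 57.7 to 156 CPM in STIM KO and 20.2 to 99.2 CPM in CS, most of it Ddc, with Lcp2, Lcp3, Lcp4, Cpr47Ea and Cpr65Au at 0.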

How the data were processed

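RNA of 4 STIM KO and 4 CS samples of larval brains was sequenced by the authors, who aligned the reads to dm6 with hisat2. The deposited values are raw htseq-count read counts per RefSeq transcript. The annotation and the counting mode are not given in the sources used here. A deposited table of the authors' own DESeq2 comparison (means, fold changes and p-values) was not used. Of 34463 features, 34386 were matched to a gene by exact identifier, 13 without the version, and 64 had no match. Of all features, 16016 had a count. Reads counted were 3.6% to 11.6% of a library, and 42.6% to 55.6% fell on no feature. All rows that name no transcript were left out. Every pair of libraries of a genotype differed by more than sampling noise (lowest chi-square over its degrees of freedom 7.29).

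The main fit was edgeR 4.0.16 in R 4.3.3 (quasi-likelihood test, TMM factors, filterByExpr at 10 counts and a total of 15, Benjamini-Hochberg adjustment), and alternatives used DESeq2 1.42.0 and limma 3.58.1. Permutation tests and plots used python 3.11.15 and matplotlib 3.10.9. Each gene stands for its transcript with the highest mean CPM. Where a gene has several transcripts, as may hold for list genes such as br, its value may miss reads in the bases that they share. In the exact 2-sided permutation test over 70 labelings, counts were summed per gene, and the prior count of log2 CPM was 2. The edgeR steps were run on simulated counts first. The 9 genes, the 15 lists, the library sets and the tests were chosen with earlier results of these data known. Besides the 9 genes, the text names the 3 genes of each hormone list with the smallest unadjusted p, any list gene with an adjusted p under 0.05 in the edgeR fit with genotype only or with the set term, and the 5 transcripts most correlated with the summed level. GstE14, dare, Ptth, tor, Lst, ase, insc, Snap25, the genes at 0 and the salivary gland, muscle, gut and cuticle markers were named after their values were seen. CG8145, Eip71CD and Qm were not matched. Coordinates are those of the Ensembl BDGP6.54 annotation, identical to RefSeq's for all 9 genes.

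Labels share replicate numbers between genotypes. Residuals of libraries with the same number correlated at 0.40 to 0.79 between genotypes, so that the block was run. Libraries of other numbers gave 0.36 to 0.73 inside a set and -0.80 to -0.40 between sets, so the number carries mostly the set. The cDNA pools were isolated separately per sample, and p-values measure the spread between these samples. The set fit and the fit of genotype by set, both without the expression filter, are exceptions, as their variance was in effect pooled over all transcripts.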

Additional observations from a re-analysis of the deposited data

Results flagged for a closer look

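Among 15 groups of 4 libraries with at least 10 counts, 4 had 1 library far from the other 3 on the CPM scale. The rate of about 1 in 20 groups set for chance cannot be compared with this. The groups share libraries, and CPM was not on a log scale. In STIM KO the flagged values were sad in replicate 4 at 193.4 CPM, sro in the same replicate at 71.32 CPM, and phtm in replicate 2 at 12.99 CPM. In CS, Start1 in replicate 4 was at 5.974 CPM. STIM KO replicate 4 also had the highest spok, nvd and ouib of its genotype. With that library left out the log2 fold change of sad was -4.57 and that of sro was -2.61 (edgeR).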

How the results depend on the processing

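Of 138 alternative values for the fitted change of single synthesis genes, 134 stayed on their side of the threshold with the same sign, and 4 passed it (sad under DESeq2 and both set fits, sro in the set fit of every transcript). The count of all transcripts past the threshold, 0 with genotype only, was 85 with DESeq2, 2 with library size only, 30 with every transcript, 2 with CPM above 1 in at least 2 libraries, 26 with limma voom, 39 with the library set as a term and 481 with that term on every transcript, the last chosen after seeing the data. With the replicate block it was 14, and the block changed no call on a synthesis gene. Of the synthesis genes, 1 was called with DESeq2, 1 with the set term and 2 with the set term on every transcript. Of the 68 genes of the hormone lists tested in that last fit, with its pooled variance, 5 were called, against 481 of all 16016 transcripts. Npc2a was lower and Npc2e, Smox, br and Akh were higher. The log2 fold change of Smox was 0.27 in the fit of genotype only without STIM KO replicate 1. The cause of the changes in these counts was not tested. Leaving out each library in turn called 0 transcripts of any kind. Of 126 alternative differences in mean log2 CPM, 116 kept their side, 2 passed the threshold (sro and phtm without 1 STIM KO library), and 7 lost it, all of sad, whose difference was -3.54 with library size only (exact permutation test, p = 0.0571), -3.95 to -3.32 without 1 CS library (p = 0.0571 each), -3.87 with replicates 2 to 4 (p = 0.1, the smallest possible) and -3.60 in the replicate block by sign flips (p = 0.125, the smallest possible). The difference of jhamt turned to 0.094 without CS replicate 2 (range -0.70 to 0.094). The 6 tests of a change between sets kept their side of the adjusted threshold without the expression filter. There the unadjusted p by edgeR was 0.0042 for nvd, 0.035 for sro and 0.042 for spok, with variance in effect pooled over all transcripts. For dib, ouib and sad it was 0.085, 0.93 and 0.74. Median log2 changes of all transcripts were 0.05 with TMM and 0.09 with library size only. With 13 to 57 counts in all, jhamt, Start1 and phtm allow little precision. The part of sequencing depth and of the counting of shared bases in this was not tested.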
